A study of Mus musculus with 4 samples.

Results

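The receptor for macrophage colony-stimulating factor (M-CSF), the transcription factors that set the macrophage fate and a group of genes that identify macrophages were followed after knockdown of interferon regulatory factor 2 (IRF2). The 9 genes are Csf1r, Spi1, Cebpa, Cebpb, Adgre1, Cd68, Mertk, Itgam and Lyz2, chosen by symbol from the 48795 genes of the count table, and all 9 had enough reads to be tested. RNA sequencing measured the transcripts of bone marrow-derived macrophages of C57BL/6 mice, primary cells grown out of marrow for 5 days with 50 ng/ml of M-CSF and 10% fetal bovine serum. In 2 libraries the cells had received 50 nM of siRNAs against IRF2 and in 2 libraries the same dose of a control siRNA, with collection 48 h after transfection in both groups. siRNAs are short RNA duplexes that guide the breakdown of an mRNA they match, so Irf2 is lowered and not deleted. Whether the replicate libraries stem from separate cultures or animals is not given in the labels. The p-values therefore reflect the spread between these libraries alone, and that spread may be technical.

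M-CSF binds the tyrosine kinase receptor encoded by Csf1r, and this signal drives survival, growth and differentiation of the macrophage lineage. The transcription factor PU.1, encoded by Spi1, is needed for that lineage and acts with the C/EBP factors, encoded by Cebpa and Cebpb, on promoters and enhancers of myeloid genes, Csf1r among them. The proteins of Adgre1 (F4/80), Cd68, Mertk, Itgam (CD11b) and Lyz2 (lysozyme M) are widely used to recognise macrophages in the mouse. IRF2 is a member of the interferon regulatory factor family, best known for repressing interferon-inducible promoters.

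Reads counted in genes were 26378584 and 26895100 in IRF2 siRNA replicates 1 and 2, and 29862296 and 32273565 in control siRNA replicates 1 and 2. Levels are given in CPM, the reads of a gene scaled to library depth, with TMM factors. Irf2, the targeted gene, had 56.0 and 56.1 CPM in the IRF2 siRNA libraries, against 164 and 152 CPM in the control siRNA libraries. It fell 2.81-fold (log2 fold change -1.49, SE 0.11, adjusted p = 0.00477 in edgeR's quasi-likelihood test), and each IRF2 siRNA library lay below each control. All 10 genes of the macrophage marker list had reads in every library, with summed levels of 29743 and 28645 CPM in the IRF2 siRNA libraries and 30307 and 28357 CPM in the control siRNA libraries. This sum is no separate evidence, since 6 of the 10 are among the lineage genes, Lyz2 with the highest level. Cd14, a lipopolysaccharide co-receptor in the same list that was picked out after its values were seen, had 396 and 376 CPM with IRF2 siRNA, against 594 and 508 CPM with control siRNA, and did not pass (edgeR adjusted p = 0.131). Markers of other cells were low or rested mainly on 1 or a pair of genes, and their values follow the results. Which cells those reads came from was not tested.

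None of the 9 lineage genes passed an adjusted p under 0.05, the threshold for a call. The edgeR quasi-likelihood test called 0 of 9, none had an unadjusted p under 0.05, and DESeq2, limma-voom and the edgeR likelihood ratio test also called 0 of 9. Over all 13495 genes tested, the quasi-likelihood test called 1.79%, with 0.511% higher and 1.27% lower with IRF2 siRNA. DESeq2 called 3.16%, limma-voom 1.68% and the likelihood ratio test 5.11%. Log2 fold changes of the 9 ran between -0.19 for Spi1 and 0.13 for Cebpa, with 3 above 0 and 6 below. Their median was -0.02, beside -0.0015 over all genes tested. The median size of the change, regardless of sign, was 0.08 for the 9 genes and 0.14 over all genes tested. Genes were not matched for level in this comparison. By reads per exon length, the lowest of the 9, Cebpa, stood at the 88.5th percentile of the genes tested. The 95% intervals of the 9 genes lay between -0.57 and 0.42 on the log2 scale, so each interval stayed inside a 2-fold change in either direction. RNA from a whole culture cannot tell fewer cells of a type apart from less RNA per cell.

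**Figure D1:**
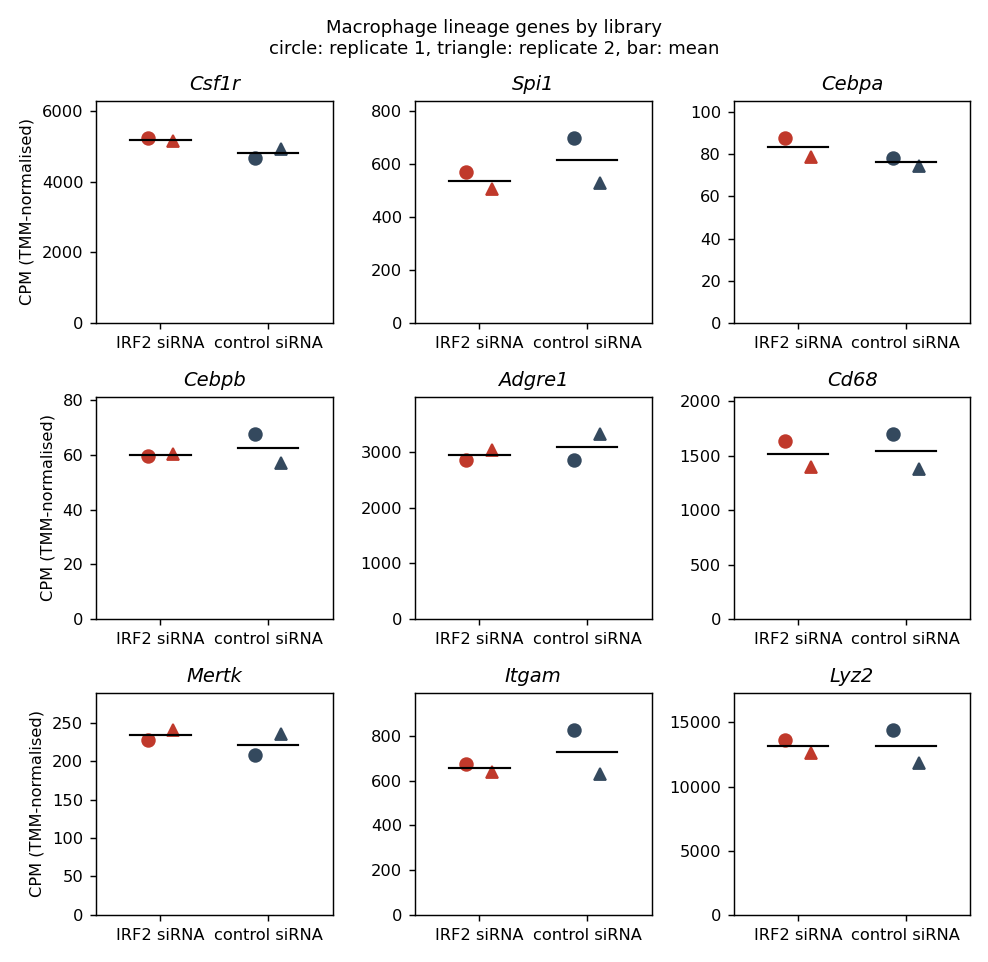
Level of each of the 9 lineage genes in CPM after TMM scaling (y axis from 0, its own scale for each gene), with IRF2 siRNA libraries on the left and control siRNA libraries on the right; circles are replicate 1, triangles replicate 2 and bars the mean of 2 libraries. The groups are separate for Csf1r and Cebpa, and for the other 7 genes the range of 1 group overlaps that of the other.

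Csf1r, the receptor through which M-CSF acts, had 5245 and 5144 CPM in the IRF2 siRNA libraries, against 4675 and 4931 CPM in the control siRNA libraries. Both IRF2 siRNA libraries were above both controls. The level averaged 5195 ± 71.4 CPM with IRF2 siRNA and 4803 ± 182 CPM with control siRNA (SD, n = 2 each). This difference did not pass, with a log2 fold change of 0.11, a 95% interval from -0.19 to 0.42 and an adjusted p = 0.904 by edgeR. In fold terms the interval ran from 0.874 to 1.34. Csf1r lies on the plus strand of chromosome 18 (mm10, 61100598 to 61132149), and 873 of its 5774 exon bases overlap Hmgxb3 on the other strand. Hmgxb3 had 326 and 387 reads in the IRF2 siRNA libraries and 332 and 447 in the control siRNA libraries, where Csf1r had at least 135728 in every library. Since no source used here gives the strand setting of the counting, the reads of overlapping genes named here may be partly left out or exchanged.

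Spi1, which encodes PU.1, had the lowest log2 fold change of the 9. Its level was 568 and 505 CPM with IRF2 siRNA, against 698 and 527 CPM with control siRNA. Control replicate 1 stood above the other 3 libraries, and control replicate 2 lay between the IRF2 siRNA libraries. Over all 4 libraries the log2 fold change was -0.19, with a 95% interval from -0.57 to 0.19 and an edgeR adjusted p = 0.835. The call depended on control replicate 2. Without it the log2 fold change was -0.38 with an edgeR adjusted p = 0.0159, and without control replicate 1 it was 0.03 with an edgeR adjusted p = 0.929. Leaving out control replicate 2 made 7.67% of all genes tested pass as lower and 12.8% in either direction, against 10.2% in either direction without control replicate 1. Spi1 spans positions 91082390 to 91115756 of chromosome 2 on the plus strand, and its exons overlap no other counted gene.

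Cebpa, the C/EBP factor that directs progenitors into the myeloid path, had 87.6 and 78.5 CPM in the IRF2 siRNA libraries and 78.1 and 74.1 CPM in the control siRNA libraries. The groups did not overlap, but the lower IRF2 siRNA library and the higher control library differed by less than 1 CPM. The change of 0.13 on the log2 scale did not pass, with a 95% interval from -0.15 to 0.41 and an edgeR adjusted p = 0.868. Cebpb, a C/EBP factor of mature macrophages and of inflammatory gene expression, had 59.5 and 60.5 CPM with IRF2 siRNA, against 67.8 and 57.2 CPM with control siRNA. Both IRF2 siRNA libraries lay between the controls. On the log2 scale Cebpb differed by -0.06, with a 95% interval from -0.36 to 0.25 and an edgeR adjusted p = 0.967, and it was 0.07 without control replicate 1. In CPM, which does not correct for gene length, the ratio of Cebpa to Cebpb was 1.47 and 1.30 in the IRF2 siRNA libraries. It was 1.15 and 1.29 in the control siRNA libraries. Per kilobase of exon, Cebpb was the higher in all 4 libraries. Both are single-exon genes on the plus strand, Cebpa on chromosome 7 at 35119293 to 35121928 and Cebpb on chromosome 2 at 167688915 to 167690418. Of the exon bases of Cebpb, 312 of 1504 overlap Tmem189, which had between 2627 and 2850 reads per library and so more than Cebpb itself, which had between 1576 and 1968.

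Csf1r and Cebpa were the 2 of 9 genes with both IRF2 siRNA libraries above both controls, and none had both below. Over all genes tested, 19.0% had both IRF2 siRNA libraries above both controls and 19.4% had both below. The count for the lineage genes in the higher direction is near that background.

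**Figure D2:**
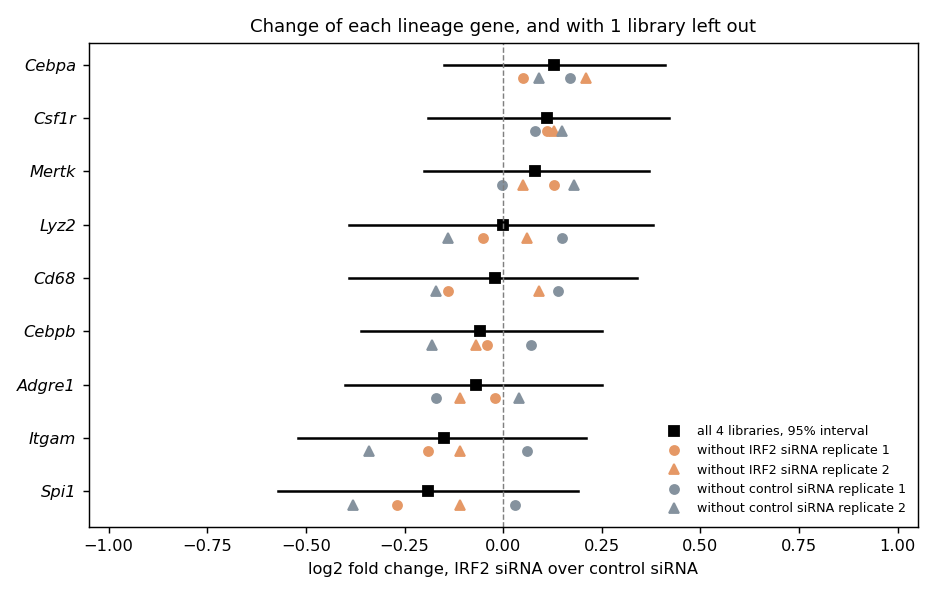
Log2 fold change of each lineage gene, IRF2 siRNA over control siRNA (x axis), from all 4 libraries with its 95% interval (black squares and lines) and with 1 library left out (coloured symbols just below). Every interval crosses 0 and stays between -0.57 and 0.42; without control siRNA replicate 2, Spi1 and Itgam move to -0.38 and -0.34.

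Among the surface and lysosomal proteins that identify the cells, Adgre1 encodes F4/80, an adhesion G-protein-coupled receptor. Its level was 2864 and 3031 CPM with IRF2 siRNA, against 2866 and 3329 CPM with control siRNA. On the log2 scale Adgre1 differed by -0.07, with a 95% interval from -0.40 to 0.25 and an edgeR adjusted p = 0.957. Mertk, a receptor tyrosine kinase of the TAM family that mediates uptake of apoptotic cells, had 228 and 241 CPM with IRF2 siRNA and 208 and 235 CPM with control siRNA. The Mertk log2 fold change was 0.08, with a 95% interval from -0.20 to 0.37 and an edgeR adjusted p = 0.930. The sign turned for Adgre1 without control replicate 2, to 0.04, and for Mertk without control replicate 1, to -0.0021. For both genes the group ranges overlapped and control replicate 2 was the higher control. Adgre1 lies on chromosome 17 at 57358691 to 57483527 and Mertk on chromosome 2 at 128698956 to 128802894. Both are on the plus strand and share no exon bases with another counted gene.

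Itgam encodes the alpha chain of the integrin CD11b/CD18, the complement receptor that binds iC3b. Its level was 675 and 637 CPM in the IRF2 siRNA libraries, against 828 and 631 CPM in the control siRNA libraries. Control replicate 1 stood above the other 3 libraries, as it did for Spi1. With all libraries the log2 fold change was -0.15, with a 95% interval from -0.52 to 0.21 and an edgeR adjusted p = 0.882. Without control replicate 2 it was -0.34 with an edgeR adjusted p = 0.0395, and without control replicate 1 it was 0.06 with an edgeR adjusted p = 0.841. Itgam lies on chromosome 7 at 128062640 to 128118491 on the plus strand. In GENCODE M21, 3450 of its 5024 exon bases are shared with Gm49368 on the same strand, a gene with 1 to 7 reads per library here. If the counting used the same overlap, reads in the shared bases would have been left out as ambiguous, and the level of Itgam would be understated in all 4 libraries.

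Cd68 encodes a scavenger receptor-like glycoprotein of endosomes and lysosomes. Its level was 1638 and 1394 CPM with IRF2 siRNA, against 1702 and 1382 CPM with control siRNA. Replicate 1 was higher than replicate 2 in both groups, by more than the mean of 1516 CPM with IRF2 siRNA differed from that of 1542 CPM with control siRNA. For Cd68 the log2 fold change was -0.02, with a 95% interval from -0.39 to 0.34 and an edgeR adjusted p = 0.995. It turned positive under scaling by library size alone, and was 0.14 without control replicate 1 and 0.09 without IRF2 siRNA replicate 2. Lyz2, the lysozyme of myeloid cells that cleaves bacterial cell walls, had 13623 and 12629 CPM with IRF2 siRNA, against 14431 and 11844 CPM with control siRNA. Both IRF2 siRNA libraries lay between the controls. The Lyz2 log2 fold change was -0.0012, with a 95% interval from -0.39 to 0.38 and an edgeR adjusted p = 0.999, and its sign changed with the scaling. Without control replicate 1 it was 0.15, and without IRF2 siRNA replicate 2 it was 0.06. Cd68 lies on chromosome 11 at 69664213 to 69666153 and Lyz2 on chromosome 10 at 117277331 to 117282321, both on the minus strand. Lyz1, a close paralog of Lyz2, had between 206 and 252 reads per library, while Lyz2 had at least 344141. Reads that fit both genes would not have been counted.

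Itgam and Cd68 carry the hexamer of PU.1 sites, GAGGAA, near their start, and their promoters are shown because Spi1 is among the genes measured. Promoter windows from RefSeq on GRCm38.p6, with 250 bases before and 50 after the start, were matched for 6 of the 9 genes, namely Cebpa, Cebpb, Cd68, Mertk, Itgam and Lyz2. The 250 bases before the start follow for both, 5′ to 3′ on the strand of the gene, at chr7:128062390-128062639 on the plus strand for Itgam and chr11:69666171-69666420 on the minus strand for Cd68. Capitals mark GAGGAA or its reverse complement and, in Cd68, a C/EBP-type match.
Itgam: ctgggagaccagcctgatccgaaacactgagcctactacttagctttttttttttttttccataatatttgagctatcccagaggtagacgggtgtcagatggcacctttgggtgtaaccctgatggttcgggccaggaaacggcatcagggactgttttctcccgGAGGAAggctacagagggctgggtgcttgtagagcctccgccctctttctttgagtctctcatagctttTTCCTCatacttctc
Cd68: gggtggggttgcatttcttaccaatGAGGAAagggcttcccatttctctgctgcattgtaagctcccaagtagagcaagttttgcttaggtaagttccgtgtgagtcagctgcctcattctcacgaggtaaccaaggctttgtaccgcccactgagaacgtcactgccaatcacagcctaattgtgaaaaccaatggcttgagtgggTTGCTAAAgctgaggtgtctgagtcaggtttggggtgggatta
The Itgam window held GAGGAA at positions -84 to -79 and, on the other strand, at -15 to -10 and at 33 to 38, counted from the start site. The Cd68 window held it at -225 to -220 and, on the other strand, at 30 to 35. On both strands, GAGGAA occurred in 2 of the 6 promoters and in 28.3% of all 32851 promoter windows of the same length. The C/EBP-type letters TTGCNNAA occurred in 1 of the 6, in Cd68 at -43 to -36, and in 10.8% of all windows. The core letters of sites for IRF factors, AANNGAAA, occurred in 1 of the 6, again Cd68, on the other strand at 24 to 31, and in 23.9% of all windows. That match overlaps the Cd68 hexamer at 30 to 35, and no other match overlapped another. The IRF letters were chosen after a longer form had been searched and had matched none of the 6 promoters.

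Differences between the control libraries were for most of the lineage genes larger than the changes between groups. The control libraries differed by more than the fold change between groups for 7 of 9 genes, all but Csf1r and Cebpa. They differed by 0.41 on the log2 scale for Spi1, 0.39 for Itgam, 0.30 for Cd68, 0.28 for Lyz2 and 0.24 for Cebpb, each higher in replicate 1. Cebpa, too, was higher in control replicate 1, by 0.08, while Adgre1, Mertk and Csf1r were higher in control replicate 2 by 0.22, 0.18 and 0.08. The median gap between libraries for the 9 genes was 0.08 with IRF2 siRNA and 0.24 with control siRNA. Over all genes tested, again not matched for level, it was 0.14 with IRF2 siRNA and 0.25 with control siRNA. The control gap was the larger for 8 of 9 genes, the exception being Cebpa. Over all genes tested the median control gap of 0.25 also exceeded the median size of the change between groups, 0.14. A gap between single libraries tends to exceed a difference of 2-library means even where nothing changes.

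**Figure D3:**
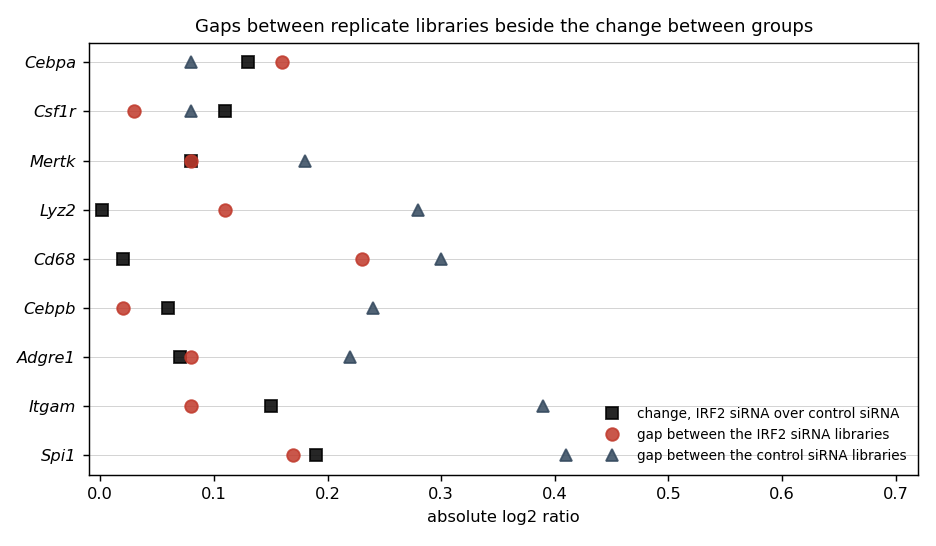
Absolute log2 ratio (x axis) of the change between groups (squares), of the IRF2 siRNA libraries to each other (circles) and of the control siRNA libraries to each other (triangles), for each lineage gene. The control gap exceeds the change for 7 genes, with the widest gaps at 0.41 for Spi1 and 0.39 for Itgam.

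Levels of different genes were compared as CPM per kilobase of exon. Lyz2 had 10352 and 9597 CPM per kilobase with IRF2 siRNA, against 10965 and 9000 with control siRNA, and no other gene tested was higher on this scale. Lyz2 alone took 1.37% and 1.28% of gene counts in the IRF2 siRNA libraries and 1.4% and 1.19% in the control siRNA libraries. The 9 genes together took 2.51% and 2.40% with IRF2 siRNA, against 2.48% and 2.32% with control siRNA. By mean level per kilobase the order was Lyz2, Cd68, Adgre1, Csf1r, Spi1, Itgam, Mertk, Cebpb and Cebpa, with Cd68 at 1216, Adgre1 at 933 and Csf1r at 866 over the 4 libraries. Only 36 tested genes were above Csf1r, the lowest of these 4.

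The transcription factors stood lower. Spi1 averaged 213 CPM per kilobase over the 4 libraries, Cebpb 40.7 and Cebpa 30.2. The ratio of Spi1 to Cebpa per kilobase was 6.33 and 6.30 in the IRF2 siRNA libraries and 8.74 and 6.96 in the control siRNA libraries. Neighbours in the order had ranges that did not overlap across the 4 libraries, except Adgre1 and Csf1r, which kept their order in 3 of 4. Some places would change if reads in shared exon bases were left out of the counts, which is not known. For that case, the same reads were divided by only the exon bases that overlap no other counted gene. Csf1r then had 1070 and 1050 CPM per kilobase with IRF2 siRNA and 954 and 1006 with control siRNA, and was below Adgre1 in 1 library. On that scale Itgam had 429 and 405 with IRF2 siRNA and 526 and 401 with control siRNA, above Spi1 in all 4 libraries, and the ranges of Mertk and Cebpb overlapped.

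**Figure D4:**
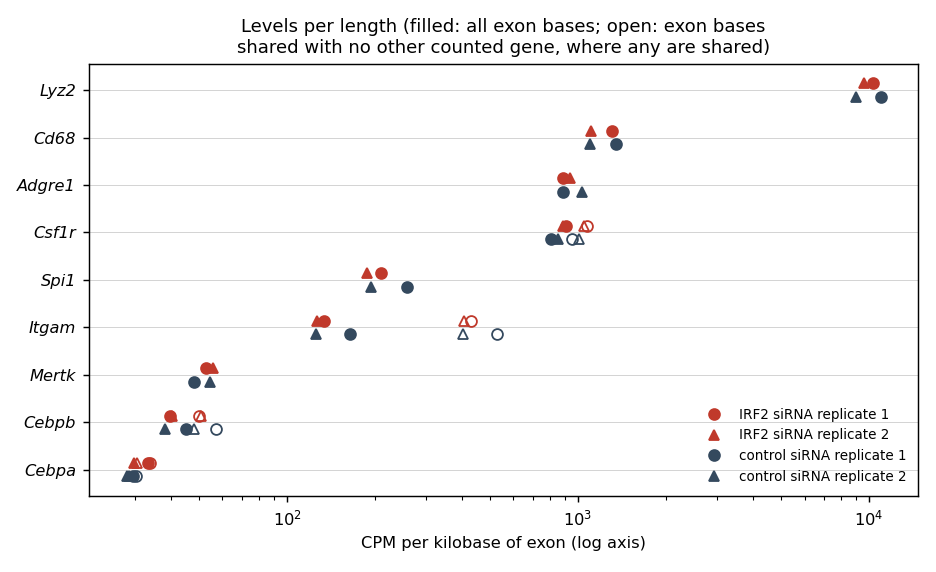
Level of each lineage gene in CPM per kilobase of exon (x axis, logarithmic), with IRF2 siRNA libraries above control siRNA libraries. Filled symbols divide by all exon bases. Open symbols divide the same reads by only the bases shared with no other counted gene, as if reads in shared bases were left out. Lyz2 is highest and Cebpa lowest, at means of 9979 and 30.2, and the open symbols move Itgam above Spi1.

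Genes whose values over the 4 libraries were most like those of Csf1r were sought by the distance between log2 CPM profiles, each centred on its own mean. Among 5285 genes with a mean log2 CPM of at least 5, outside the 9 and with an established symbol, the nearest were Mavs, Top3b and Atp13a1, at distances of 0.0142, 0.0168 and 0.0180. These 3 genes differed by 0.11, 0.10 and 0.10 on the log2 scale, none past the threshold (edgeR adjusted p = 0.877, 0.897 and 0.902). With 4 libraries and changes this small, the distance describes these libraries only.

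Ligands and signalling genes of the M-CSF receptor gave 0 calls among 29 tested of 30 listed, with Il34, the other ligand of the receptor, below the filter. The edgeR quasi-likelihood test at an unadjusted p under 0.05 gave 3 of 29, 1 higher and 2 lower with IRF2 siRNA, where 10.9% of all genes tested had such a p. DESeq2 and limma-voom called none, and the edgeR likelihood ratio test called Csf1, where it called 5.11% of all genes tested. The list's median log2 fold change was -0.02. Csf1, which encodes M-CSF itself, had 3.06 and 4.0 CPM with IRF2 siRNA, against 6.61 and 6.76 CPM with control siRNA. Both IRF2 siRNA libraries were lower than both controls. Per kilobase of exon, Csf1r exceeded Csf1 by a factor of 1569 and 1176 in the IRF2 siRNA libraries and 647 and 667 in the control siRNA libraries, in cells that were also grown with added M-CSF. The log2 fold change of Csf1 was -0.92 with a 95% interval from -1.38 to -0.46, and it missed the threshold with an edgeR adjusted p = 0.0827. With 1 library left out, the Csf1 log2 fold change was -0.93 without control replicate 1 and -0.9 without control replicate 2. Without IRF2 siRNA replicates 1 and 2 it was -0.73 and -1.12. Grb2, the adaptor that links the receptor to Ras, had 315 and 304 CPM with IRF2 siRNA and 412 and 370 CPM with control siRNA. Its log2 difference of -0.34 had an edgeR adjusted p = 0.316, and lay between -0.41 and -0.26 with 1 library left out. With a library left out, the number of calls over all genes tested moved as well, so counts for this list are not compared.

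Other transcription factors of the myeloid lineage likewise gave 0 calls among 29 tested of 32 listed. Cebpe, Gfi1 and Myb, which act in granulocytes or progenitors, had too few reads to be tested. An unadjusted p under 0.05 was reached by 4 of 29 in the edgeR quasi-likelihood test, near the 10.9% over all genes tested. DESeq2 and limma-voom called none, and the edgeR likelihood ratio test called Id2 and Stat3, where it called 5.11% of all genes tested. The median log2 fold change was -0.04. Id2, an inhibitor of helix-loop-helix factors, had 25.7 and 21 CPM with IRF2 siRNA, against 35.8 and 32.9 CPM with control siRNA. This log2 fold change of -0.56 missed the threshold (edgeR adjusted p = 0.155). Stat3, which acts downstream of cytokine receptors, had 262 and 294 CPM with IRF2 siRNA and 171 and 213 CPM with control siRNA. On the log2 scale the difference was 0.53 (edgeR adjusted p = 0.170). Without control replicates 1 and 2 the log2 fold changes were -0.49 and -0.62 for Id2 and 0.39 and 0.7 for Stat3. Without IRF2 siRNA replicates 1 and 2 they were -0.7 and -0.42 for Id2 and 0.62 and 0.45 for Stat3. Irf8, a factor of monocyte and macrophage differentiation named here for its role with its values already seen, had a difference of -0.05 on the log2 scale (edgeR adjusted p = 0.967). Counts of called transcription factors with a library left out are not compared, since the number of calls over all genes tested moved too.

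The 39 other surface and lysosome genes had 37 tested and 0 called. The edgeR quasi-likelihood test gave 11 of 37 an unadjusted p under 0.05, with 3 higher and 8 lower, against the 10.9% over all genes. DESeq2 called 6 of the 37, namely Itgax, Cd33, Msr1, Cd9, Adgre4 and Itga6. Limma-voom called none, and the edgeR likelihood ratio test called 7, the same 6 and Marco. Over all genes tested these tests called 3.16%, 1.68% and 5.11%. The median log2 fold change was -0.03. Itgax, the CD11c integrin chain whose gene lies next to Itgam, had 12.3 and 11.7 CPM with IRF2 siRNA, against 19.6 and 19.7 CPM with control siRNA. The log2 difference for Itgax was -0.71, with a 95% interval from -1.02 to -0.40 and an edgeR adjusted p = 0.0548, just outside the threshold. Cd33, a sialic acid-binding lectin of myeloid cells, had 61.8 and 71.5 CPM with IRF2 siRNA and 37.3 and 45.3 CPM with control siRNA. The log2 difference of 0.69 had an edgeR adjusted p = 0.0835. Without control replicates 1 and 2 the log2 differences were -0.71 and -0.7 for Itgax and 0.56 and 0.84 for Cd33. Without IRF2 siRNA replicates 1 and 2 they were -0.74 and -0.67 for Itgax and 0.8 and 0.59 for Cd33. For this list, too, counts of calls with a library left out are not compared.

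Direct partners of the lineage genes in this list, named for their role with their values already seen, showed small differences. Itgb2, the CD18 chain that pairs with CD11b, had 867 and 873 CPM with IRF2 siRNA, against 896 and 883 CPM with control siRNA, a log2 difference of -0.03 (edgeR adjusted p = 0.987). The ligands that bridge MERTK to apoptotic cells, Gas6 and Pros1, differed by 0.04 and 0.06 on the log2 scale (edgeR adjusted p = 0.985 and 0.947). Axl, the related TAM receptor, had -0.25, with an edgeR adjusted p = 0.542, and Tyro3 was not tested. Axl passed the threshold without control replicate 1, but not when any of the other 3 libraries was left out. In the fit without control replicate 1, more of all genes tested passed as well.

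**Figure D5:**
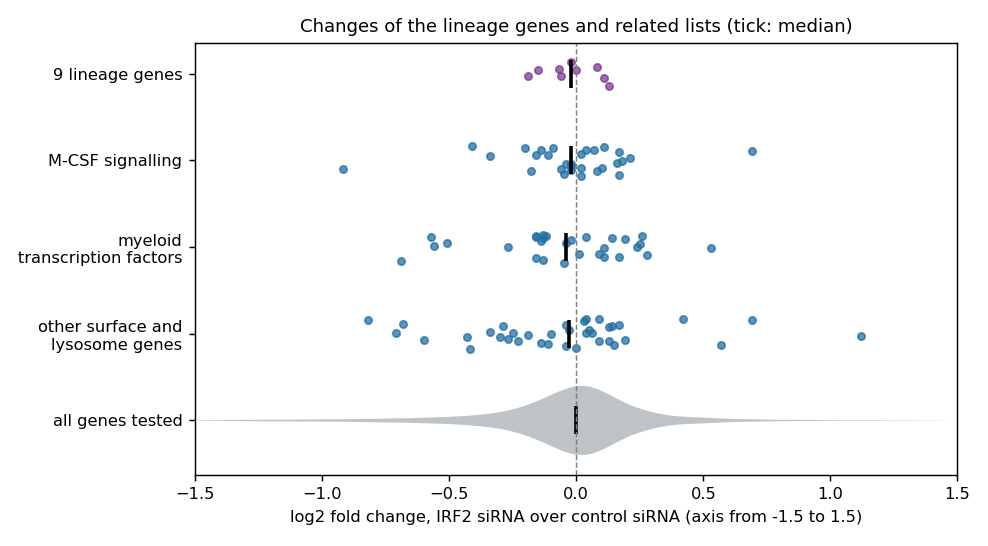
Log2 fold change of each tested gene, IRF2 siRNA over control siRNA (x axis), for the 9 lineage genes and the related lists (points, spread vertically for legibility), with the distribution over all genes tested in grey at the bottom and the median of each row as a tick. The 9 genes lie between -0.19 and 0.13 and all medians lie between -0.04 and 0; 131 genes beyond 1.5 in size are outside the axis.

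Marker lists of other cells were summed in each library. Neutrophil markers summed to 14 and 16.5 CPM with IRF2 siRNA, against 13.4 and 14.2 CPM with control siRNA, with Retnlg at 0. Haematopoietic progenitor markers summed to 3.06 and 3.74 CPM with IRF2 siRNA, against 4.2 and 4.79 CPM with control siRNA. Mast cell and basophil markers stayed under 1 CPM in every library, and 5 of 7 were at 0. Fibroblast and endothelial markers summed to 23.2 and 25 CPM with IRF2 siRNA, against 22.5 and 31.1 CPM with control siRNA.

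In the other lists 1 or a pair of genes held most of the sum. Dendritic cell markers summed to 231 and 258 CPM with IRF2 siRNA, against 264 and 284 CPM with control siRNA, of which Tcf4 held at least 229 in each library. T and NK cell markers summed to 79.2 and 86.7 CPM with IRF2 siRNA, against 111 and 119 CPM with control siRNA, nearly all of it Il7r, with Trbc2 at 0. For B cells the sums were 502 and 469 CPM with IRF2 siRNA, against 516 and 436 CPM with control siRNA, mainly Ighm and Blnk, with Pax5 at 0. Erythroid and megakaryocyte markers summed to 67.9 and 58.3 CPM with IRF2 siRNA, against 117 and 86.4 CPM with control siRNA, mostly Pf4. Osteoclast markers summed to 324 and 323 CPM with IRF2 siRNA and 383 and 362 CPM with control siRNA, mainly Atp6v0d2 and Nfatc1. The osteoclast gene Mmp9 was the only marker of all the lists that passed, 1 of 7 tested in its own list. Over all genes tested 1.79% passed. Mmp9 had 13.4 and 13.2 CPM with IRF2 siRNA, against 7.12 and 6.33 CPM with control siRNA, and an edgeR adjusted p = 0.0253. The part of these cells in the levels of the lineage genes was not tested.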

How the data were processed

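Raw counts per gene were deposited for 4 libraries, 2 transfected with IRF2 siRNAs and 2 with a control siRNA. Per the submitters' processing notes, bcl2fastq 2.18.0.12, STAR 2.5.2b, HTSeq 0.6.0 and DESeq2 were used, with the mm10 build. Annotation release and strand setting: not given in the sources used here. The table's 5 summary rows, 23.1% to 24.4% of each column, were left out. Depth was between 26378584 and 32273565 counts in genes per library. Symbols, coordinates, exon lengths and exon overlaps came from GENCODE M21 on GRCm38, and 48435 IDs matched.

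The fits used edgeR 4.0.16 under R 4.3.3. The filter was filterByExpr (minimum count 10, minimum total 15), which left 13495, and libraries were scaled by TMM. The siRNA group was the only term, glmQLFit (legacy = FALSE) and glmQLFTest gave the tests, and Benjamini-Hochberg adjustment ran over all genes tested. The steps were tested on simulated data. The standard error is the absolute log2 fold change over the square root of F, and 95% intervals use the t quantile at the test's degrees of freedom. The replicates of a group were not copies of 1 library, with a chi-square of 6.85 per degree of freedom for IRF2 siRNA and 32.5 for control siRNA.

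Besides the 9 genes and Irf2, each related list gave its called genes with the smallest p, up to 4, or, as here, the 2 with the smallest p where none was called. The 3 genes nearest to Csf1r followed. Genes and lists were chosen with earlier results of these data known. Alternatives covered scaling, filters, DESeq2 1.42.0, limma-voom (limma 3.58.1), a threshold of 0.01, legacy = TRUE, edgeR's likelihood ratio test, a block for the replicate number and the omission of each library, where a lone library is taken to vary like those of the other group.

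Promoter letters were searched on both strands. The IRF letters replaced a longer form, the interferon-stimulated response element, after that form had been searched and had matched none of the lineage promoters.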

Additional observations from a re-analysis of the deposited data

How the results depend on the processing

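The count of called lineage genes was 0 in every alternative that kept all 4 libraries. Without control siRNA replicate 2, Spi1 and Itgam had log2 fold changes of -0.38 and -0.34. Their results in that fit are described with each gene above, and counts of calls with a library left out are not compared. Cd68 turned to 0.0039 on the log2 scale under library size alone. Lyz2 turned to 0.03 under library size alone, 0.0014 with DESeq2 size factors and in DESeq2's test, 0.0046 in limma-voom and 0.0048 with the replicate number as a block. With a library left out, log2 fold changes ran from -0.38 to 0.03 for Spi1, -0.34 to 0.06 for Itgam, -0.18 to 0.07 for Cebpb, -0.17 to 0.04 for Adgre1, -0.17 to 0.14 for Cd68, -0.0021 to 0.18 for Mertk, -0.14 to 0.15 for Lyz2, 0.05 to 0.21 for Cebpa and 0.08 to 0.15 for Csf1r.

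Calls among M-CSF signalling genes were 1 in the likelihood ratio test and 0 to 6 with a library left out. Among myeloid transcription factors they were 2 and 0 to 6. Among the other surface and lysosome genes they were 1 with a filter of 1 CPM in 2 libraries, 6 in DESeq2, 7 in the likelihood ratio test and 0 to 13 with a library left out. Over all genes tested, 2.09% passed with the filter of 1 CPM in 2 libraries, 3.16% in DESeq2 and 5.11% in the likelihood ratio test. With a library left out, the counts for these lists and the share over all genes tested both moved. Counts from those fits are therefore not given. With the replicate number as a block, the related lists had 3, 5 and 11 calls and the lineage genes 0. In that fit 1521 of all genes tested passed (11.3%), against 241 without the block. Deviations of same-numbered libraries correlated at 0.373, but the labels name no pairing and 2 pairs cannot establish one. The cause of these differences was not tested. With 2 libraries a group, the width of the printed intervals limits what the test could call.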
